A study of Mus musculus with 2 samples.

Results

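Cytochrome P450 enzymes are heme proteins that insert oxygen into lipids, steroids, vitamins, drugs and dietary compounds. The genes were chosen by symbol: protein-coding mouse genes named Cyp, a family number, 1 subfamily letter and a gene number, with or without a copy letter at the end (Cyp4a12a), or Cyp and a number alone, with the sterol gene Cyp51 left out. This rule found 98 genes among 43346 gene rows. They were read in the duodenum, the part of the small intestine next to the stomach, of adult mice of strain C57BL/6J, 8 weeks old. The labels give no treatment and no modified allele. There was 1 group of 2 libraries, replicate 1 and replicate 2, made from poly(A) RNA over 200 nucleotides long after removal of ribosomal RNA, with strand-specific paired reads of 76 nucleotides. Per the labels, littermates of both sexes were pooled for the tissue. Both libraries share a donor entry and have different tissue entries, so it is not known whether the replicates came from separate animals, and their spread may be technical in part.

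Most P450 enzymes of this set sit in the membrane of the endoplasmic reticulum and take electrons from the reductase Por. A few sit in mitochondria and take electrons from ferredoxin. In the small intestine, P450 enzymes of the absorbing epithelium are the first to meet compounds taken up with food, and others turn fatty acids and eicosanoids over. Many P450 genes lie in tandem clusters of recent copies and are switched on by nuclear receptors or by the Ah receptor when their ligands are present.

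Gene counts summed to 44272208 in replicate 1 and 44710137 in replicate 2. The libraries stood apart in the tissue they held. Genes of the exocrine pancreas summed to 75720 TPM (a level per transcript length, scaled to the same total in each library) in replicate 1 and 142.3 TPM in replicate 2, over 12 genes. For 8 stomach genes the sums were 12770 and 63.15 TPM, and for Muc6 and Tff2, both made by Brunner glands, 12160 and 26.75 TPM. Each gene of these 3 lists passed the test described below, higher in replicate 1. Absorbing enterocytes were present in both: 12 enterocyte genes summed to 13060 TPM in replicate 1 and 27960 in replicate 2, with 9 called higher in replicate 2, Alpi called higher in replicate 1 and 2 not called. Of 8 hepatocyte genes, Fga and Fgb had 0 counts in both libraries, and the sums were 24.76 and 5.64 TPM. Ttr alone held 21.77 and 4.01 TPM of these sums. Adipocyte genes, 4 in number, summed to 10.69 and 373 TPM. Xist, the RNA of the inactive X chromosome of females, held 6 and 1 counts and the Y-linked gene Kdm5d 251 and 187, which goes against a label of pooled male and female tissue for both libraries; these genes were chosen after their values were seen.

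Promoter sequences are shown for genes that the results turn on: Cyp1a1, which differed most between the libraries among the 20 highest genes, Cyp4f14, the highest gene, and Cyp2c65, Cyp2c66 and Cyp2c68, genes of the same cluster on chromosome 19 whose differences did not run the same way. Each line is 120 bases of RefSeq sequence (build GRCm38.p6), read 5′ to 3′ on the strand of the gene, from upstream of an annotated start. Capitals mark matches to 4 motifs, searched on both strands. The TATA box was searched as TATAAA. The core that the Ah receptor binds was searched as GCGTG. A site for GATA factors was searched as GATAAG, which reads CTTATC when it lies on the other strand. A site for the liver and gut factor HNF4 was searched as CAAAGTCCA. No match overlaps another in the lines shown. The windows are chr9:57697493-57697612 on the plus strand for Cyp1a1, chr17:32917357-32917476 on the minus strand for Cyp4f14, chr19:39060886-39061005 and chr19:39113778-39113897, both plus, for Cyp2c65 and Cyp2c66, and chr19:39741102-39741221, minus, for Cyp2c68.
Cyp1a1: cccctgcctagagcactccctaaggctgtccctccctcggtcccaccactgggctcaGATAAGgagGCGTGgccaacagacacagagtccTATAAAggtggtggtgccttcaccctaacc
Cyp4f14: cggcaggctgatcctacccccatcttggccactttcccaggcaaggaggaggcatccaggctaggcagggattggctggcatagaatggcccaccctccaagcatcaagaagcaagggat
Cyp2c65: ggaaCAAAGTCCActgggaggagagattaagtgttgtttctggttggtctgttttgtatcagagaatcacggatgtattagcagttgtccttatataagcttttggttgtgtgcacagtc
Cyp2c66: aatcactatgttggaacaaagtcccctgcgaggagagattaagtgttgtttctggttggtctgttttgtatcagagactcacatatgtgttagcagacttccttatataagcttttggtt
Cyp2c68: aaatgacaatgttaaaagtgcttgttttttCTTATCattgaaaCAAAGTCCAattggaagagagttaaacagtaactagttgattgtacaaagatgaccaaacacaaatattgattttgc
The Cyp1a1 line held 3 of the 4 motifs: TATAAA began 30 bases, GCGTG 54 bases and GATAAG 63 bases upstream of the start. The Cyp4f14 line, upstream of 1 of its annotated starts, held none of the 4. Beyond that line, GCGTG began 237 bases upstream of the same start. In Cyp2c65, CAAAGTCCA began 116 bases upstream. Cyp2c66 had no exact match, and its nearest stretch, 104 bases upstream, differed by A9C, with positions counted from 1 at the 5′ end of the motif. Cyp2c68 held CAAAGTCCA 77 bases and the GATA site 90 bases upstream. Beyond the lines shown, TATAAA began 162 bases upstream in Cyp2c65 and 150 in Cyp2c66, and GCGTG 130 in Cyp2c68. Only the exact letters TATAAA were searched. Other TATA-like stretches, such as tatataa near the end of the Cyp2c65 and Cyp2c66 lines, were therefore not marked.

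RefSeq promoter windows were found for 75 of the 98 genes, 85 windows in all, and the 250 bases before each start were searched. CAAAGTCCA lay in 12.9% of the P450 windows, against 0.384% of 32851 windows of all genes. It was in Cyp2c40, Cyp2c65, Cyp2c67, Cyp2c68, Cyp2c69, Cyp2c70, Cyp3a11, Cyp3a16, Cyp3a41a, Cyp3a41b and Cyp8b1, and 10 of these 11 genes belong to the Cyp2c and Cyp3a clusters. The genes with this motif ran from 115.2 TPM (Cyp2c65, mean) to 0 counts in both libraries (Cyp2c40, Cyp2c69, Cyp3a16, Cyp3a41a, Cyp3a41b). TATAAA lay in 35.3% of P450 windows and 12.4% of all windows, GATAAG in 12.9% and 6.55%, and GCGTG in 17.6% and 28.2%. A match is a string of letters and not a measured binding site. Over the 250 bases before their starts, Cyp2c65 and Cyp2c66 were identical at 208 bases (83.2%), and Cyp2c65 and Cyp2c55 at 142 (56.8%).

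Of the 98 genes, 30 reached a TPM of at least 1 in both libraries and 38 in at least 1 of them. The 6 genes with a mean of at least 100 TPM were Cyp4f14, Cyp2d26, Cyp4f16, Cyp4b1, Cyp2b10 and Cyp2c65, and 20 genes had a mean of at least 10 TPM. The set summed to 1641 TPM in replicate 1 and 2755 in replicate 2 (2198 ± 787.8, SD, n = 2), or 0.167% and 0.281% of the TPM of all genes. Expression was uneven: Cyp4f14 and Cyp2d26 held 37.7% of the P450 TPM in replicate 1 and 55.3% in replicate 2, and the 10 highest genes held 82.9% and 87.3%. At the other end, 28 genes had 0 counts in both libraries.

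**Figure D1:**
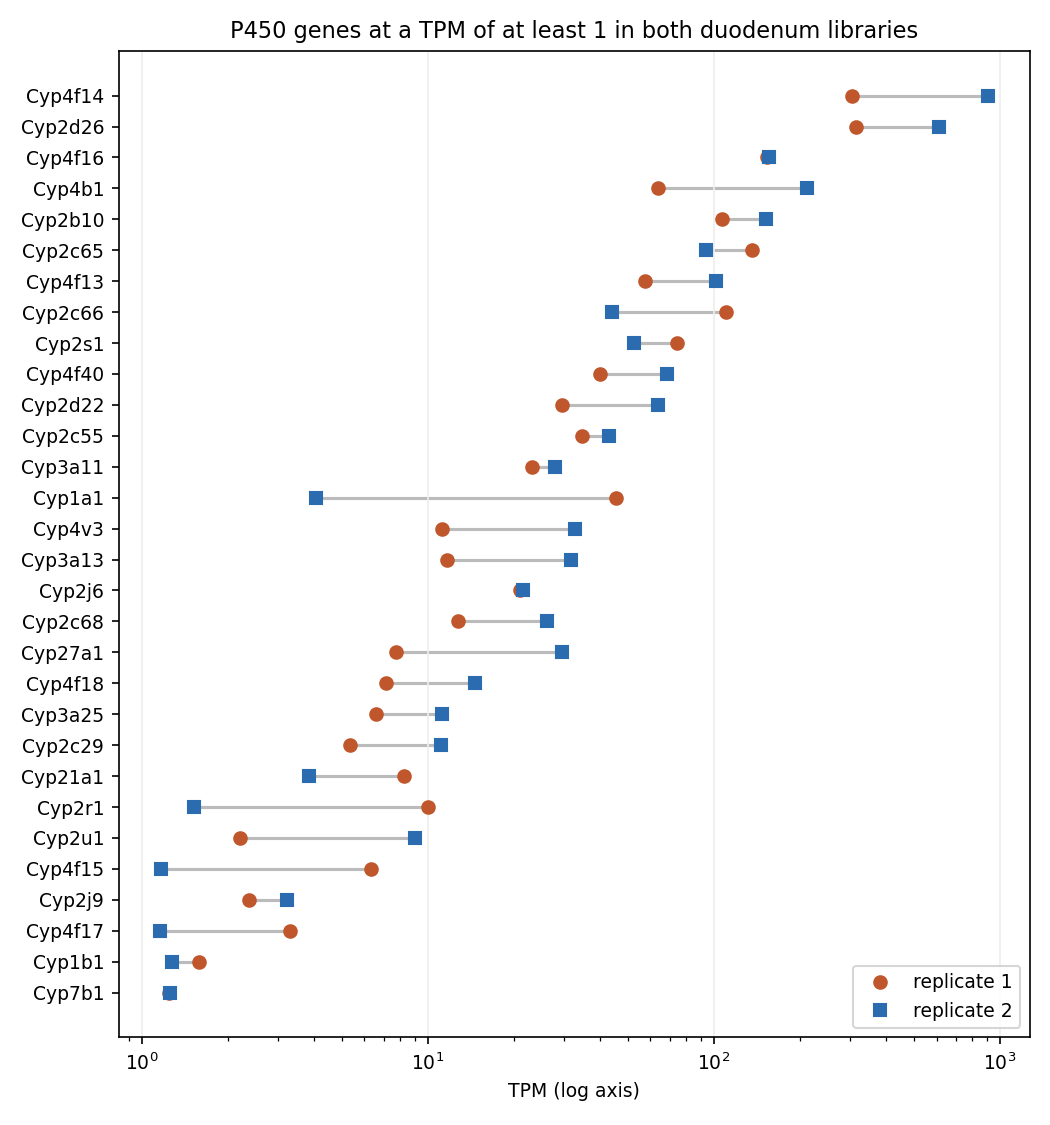
TPM (log axis) of the 30 P450 genes at a TPM of at least 1 in both libraries, ordered by their mean; circles are replicate 1, squares replicate 2, and the line joins the values of 1 gene. Cyp4f14 and Cyp2d26 lead in both libraries, and Cyp1a1 spans 45.4 to 4.06 TPM.

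By subfamily, Cyp4f held the most, with 572 TPM in replicate 1 and 1254 in replicate 2 (34.9% and 45.5% of the set). Cyp2d followed with 347.5 and 676.4 TPM, and Cyp2c with 299.8 and 219.4 TPM. The Cyp2c share was thus 18.3% in replicate 1 and 7.96% in replicate 2. Subfamilies led by a single high gene were Cyp4b (63.75 and 212.3 TPM), Cyp2b (106.5 and 153.9 TPM) and Cyp2s (74.42 and 52.46 TPM). Cyp3a, a subfamily of 9 genes known for oxidising many drugs, summed to 41.35 and 70.76 TPM.

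**Figure D2:**
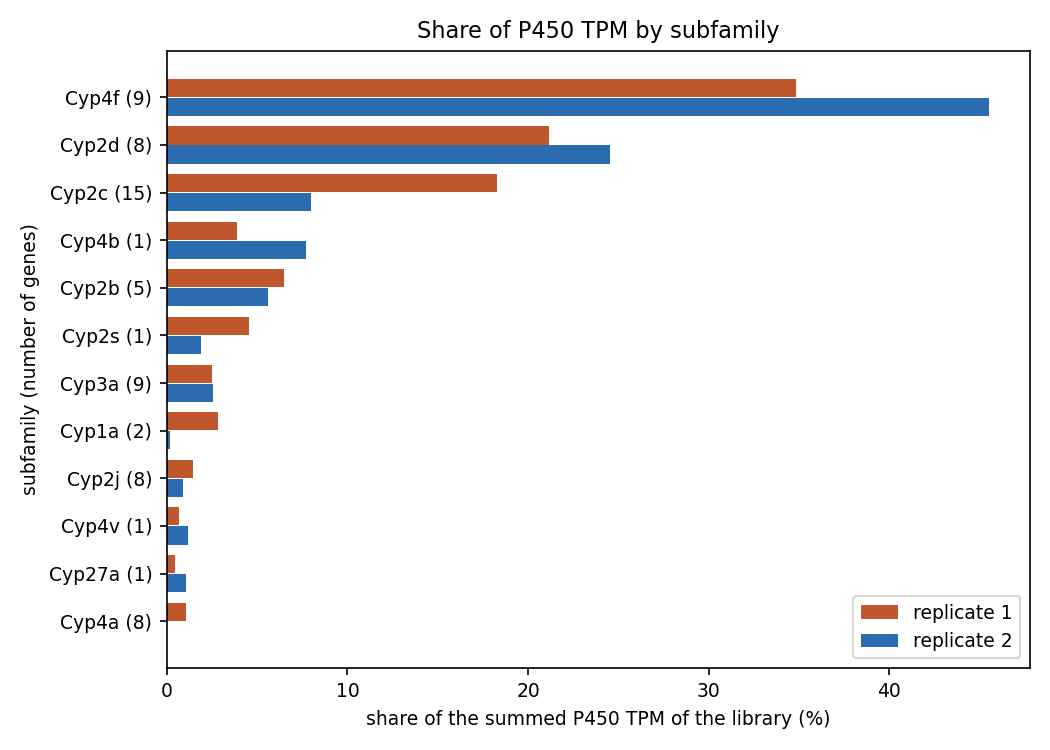
Share of the summed P450 TPM (%, bars from 0) held by the 12 highest subfamilies, with the number of genes of each in brackets; orange bars are replicate 1 and blue bars replicate 2. Cyp4f and Cyp2d lead in both libraries, and Cyp2c holds 18.3% in replicate 1 and 7.96% in replicate 2.

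Differences between the libraries were tested for each gene with an exact two-sided binomial test on counts scaled by TMM, adjusted (Benjamini-Hochberg) over all 15921 genes whose mean count reached 10. A gene was called where the adjusted p was under 0.05 and the scaled counts differed at least 2-fold. With 1 library on each side the test covers counting error only and says nothing of animals. Of the 52 P450 genes with enough counts, 30 were called (57.7%), against 26.1% of all genes tested. Higher in replicate 1 were 14 (26.9%, against 14.6% of all genes), and higher in replicate 2 were 16 (30.8%, against 11.5%); 22 were not called. The largest adjusted p among the 30 was 7.02e-04. The median log2 ratio of replicate 2 over replicate 1 was 0.24 over the 52 genes and −0.04 over all genes tested, and the median size of the log2 ratio was 0.95 and 0.47. When the spread between the libraries over all genes was taken as the error (edgeR exact test, common biological coefficient of variation 0.529), 4 of the 30 were still called: Cyp4a10, Cyp4a32 and Cyp2d10, higher in replicate 1, and Cyp2b13, higher in replicate 2; 1.37% of all genes were called in that test. Of the 30 calls, 53.3% were higher in replicate 2; the share was 38.7% with scaling by spike-ins and 23.3% with scaling by 6 genes of the intestinal epithelium. Over all called genes these shares were 44.1%, 28.2% and 4.56%. With epithelial scaling 59.1% of all genes were called, so the 30 of 52 P450 genes then called (57.7%) were near the background. These scalings moved the median log2 ratio of all genes to −0.24 and −0.97. Spike-in and epithelial scaling called 19 and 23 P450 genes higher in replicate 1, against 14 with TMM. Some genes not called with TMM were thus called with them. Where no scaling is named below, called and not called refer to TMM. The 6 epithelial genes summed to 3255 TPM in replicate 1 and 5000 in replicate 2, and the split of the P450 calls by direction therefore differs between scaling by all genes and by these 6. In bulk tissue, fewer cells of a type and less RNA per cell cannot be told apart. Folds below are of scaled counts, with 95% Clopper-Pearson intervals, and differ from TPM ratios by a median of 1.12 times.

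**Figure D3:**
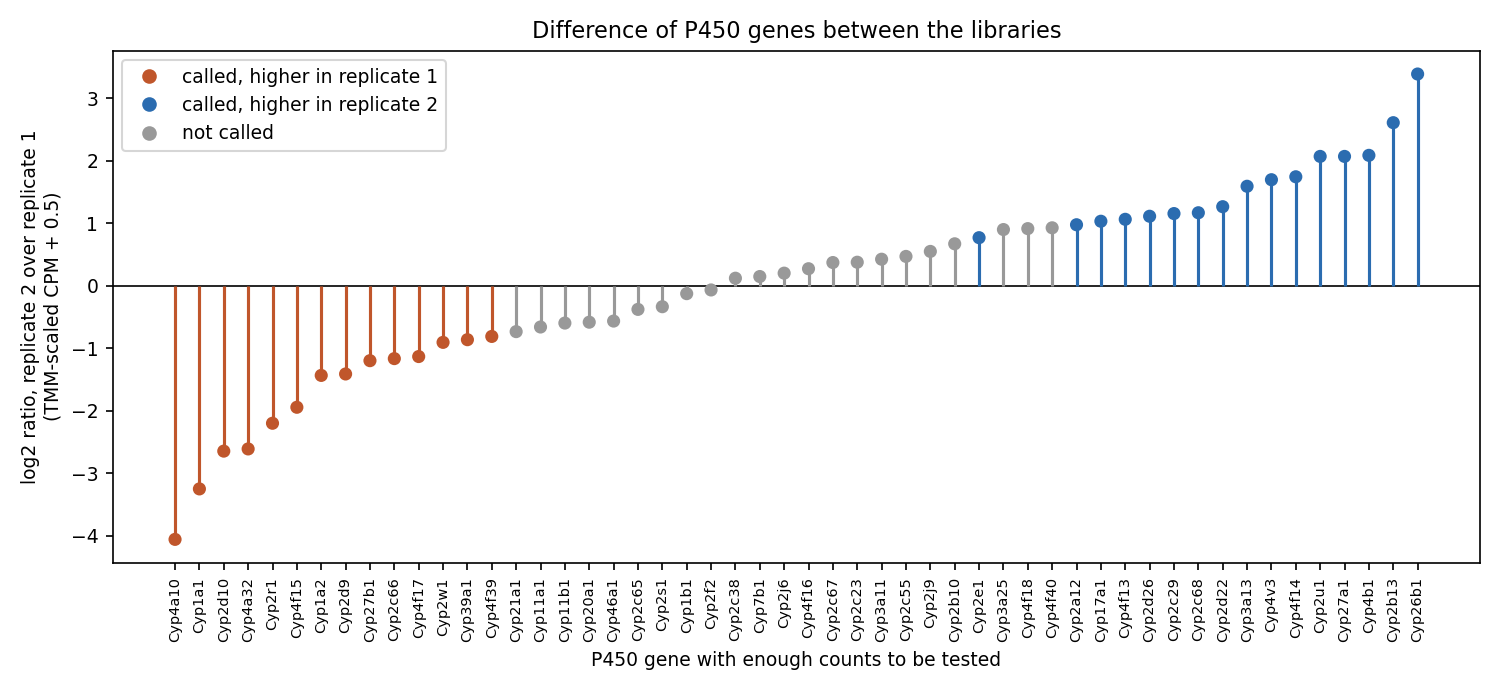
Log2 ratio of replicate 2 over replicate 1 (TMM-scaled CPM + 0.5) for the 52 tested P450 genes in order of the ratio; orange points were called higher in replicate 1, blue points higher in replicate 2 and grey points were not called. On this scale the ratios run from −4.06 for Cyp4a10 to 3.39 for Cyp26b1; the added 0.5 shrinks the ratios of genes with few counts, such as Cyp2d10, Cyp4a32 and Cyp2b13, the most.

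Genes of the subfamilies known for fatty acids and eicosanoids, 29 in all, summed to 689.7 TPM in replicate 1 and 1533 in replicate 2. Of 15 tested, 5 were called higher in each library and 5 were not called, where 14.6% of all genes tested were called higher in replicate 1 and 11.5% in replicate 2. Cyp4f14, which hydroxylates leukotriene B4 and long-chain fatty acids at their far end, stood at 303 TPM in replicate 1 and 910 in replicate 2, from 25058 and 71942 counts. Replicate 2 was 3.35-fold higher (3.30 to 3.40). It lies on chr17:32905070-32917342 (mm10) on the minus strand. In GENCODE M21 its 2 annotated transcripts, both coding, start at different first exons. Cyp4f14-201 starts at base 32917100 and Cyp4f14-202 at base 32917342 of chromosome 17. Shares were quantified on GENCODE M4, where Cyp4f14-201 is 2207 nucleotides long against 2221 in M21, so its quantified start may differ. Cyp4f14-201 held 54.7% of the TPM of the gene in replicate 1 and 28.8% in replicate 2, from 13694 and 20688 counts, and Cyp4f14-202 held 45.4% and 71.2%, from 11364 and 51254 counts. The transcript with the greater share thus differed between the libraries; how far the quantifier could tell the transcripts apart was not tested.

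Cyp4f16, in the same cluster as Cyp4f14, was nearly level, at 154 and 156 TPM. Only 42.9% of its TPM in replicate 1 and 54.1% in replicate 2 came from coding transcripts, the lowest shares among the 20 highest genes; the retained-intron transcript Cyp4f16-205 alone held 30.0% and 39.6%. For 15 of those 20 genes, at least 90% of the TPM came from coding transcripts in both libraries. Cyp4f13 stood at 57.5 and 102 TPM and was called higher in replicate 2 (2.10-fold, 2.01 to 2.19), but its log2 ratio was −0.02 with epithelial scaling. Cyp4f40 at 39.9 and 68.4 TPM and Cyp4f18, known for oxidising leukotriene B4 in neutrophils, at 7.15 and 14.7 TPM were not called.

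Other Cyp4f genes were called the other way. Cyp4f15 stood at 6.31 TPM in replicate 1 and 1.17 in replicate 2 (4.53-fold higher in replicate 1, 3.60 to 5.77). Cyp4f17 stood at 3.30 and 1.16 TPM (2.56-fold, 1.94 to 3.42). Cyp4f39, the counterpart of a human gene for skin ceramides, was also called higher in replicate 1 at 53 and 17 counts. Cyp4f genes on chromosome 17 were thus called in opposite directions with TMM scaling. With epithelial scaling Cyp4f14 (log2 ratio 0.65) and Cyp4f13 were no longer called, while Cyp4f15 and Cyp4f17 were still called higher in replicate 1.

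Cyp4b1, which oxidises medium-chain fatty acids, stood at 63.8 TPM in replicate 1 and 212 in replicate 2 and was 4.27-fold higher in replicate 2 (4.11 to 4.44). In the same cluster, genes of the Cyp4a subfamily were called the other way. Cyp4a10, a fatty acid hydroxylase and a known target of the receptor Ppara, stood at 14.5 TPM in replicate 1 and 0.52 in replicate 2, from 1118 and 38 counts (25.2-fold higher in replicate 1, 18.3 to 35.8). Its transcript Cyp4a10-201 held 476 and 0 counts and Cyp4a10-202 held 643 and 38. Cyp4a32 had 123 and 0 counts and was at least 35.1-fold higher in replicate 1 against a floor of 3 counts in replicate 2; the interval that also counts the error of the 123 starts at 28.2-fold. Cyp4a12a and Cyp4a31, with 15 and 12 counts in replicate 1 and 0 in replicate 2, fell below the mean count of 10 set for the test. Of the stretches of 76 nucleotides in Cyp4a10 transcripts, 18.1% also occurred in another gene, mostly Cyp4a32, and of those in Cyp4a32 27.5%, so counts may be split unevenly between them. Ppara itself stood at 3.65 and 8.05 TPM and was not called. Its counts were 309 and 334, and its scaled counts were 1.26-fold higher in replicate 2 (1.08 to 1.48), less than its TPM.

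Cyp4v3, a fatty acid hydroxylase whose human counterpart is mutated in Bietti crystalline dystrophy, stood at 11.2 and 32.7 TPM (3.27-fold higher in replicate 2, 3.09 to 3.46; not called with epithelial scaling, log2 ratio 0.61). Cyp2u1, another hydroxylase of long-chain fatty acids, stood at 2.20 and 9.05 TPM (4.59-fold, 3.92 to 5.41). Cyp2j6, the highest gene of its subfamily, stood at 21.3 ± 0.375 TPM (SD, n = 2), and Cyp2j9 at 2.37 and 3.23 TPM. Neither was called. The other 6 Cyp2j genes had at most 4 counts in either library.

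Subfamilies known for oxidising foreign compounds held 50 genes, with 919.4 TPM in replicate 1 and 1180 in replicate 2. Of 25 tested, 6 were called higher in replicate 1 (14.6% over all genes), 8 higher in replicate 2 (11.5% over all genes) and 11 were not called. Cyp2d26 was the second highest P450 gene, at 315 TPM in replicate 1 and 613 in replicate 2, from 18770 and 34772 counts (2.16-fold higher in replicate 2, 2.12 to 2.20). Cyp2d22 stood at 29.5 and 63.6 TPM (2.41-fold, 2.31 to 2.52). With epithelial scaling neither was called, at log2 ratios of 0.02 and 0.18, and with spike-in scaling Cyp2d26 was not called, at 0.87. Both lie at the ends of the Cyp2d cluster. Cyp2d10 and Cyp2d9, which lie between them, were called higher in replicate 1 from few counts. Cyp2d10 held 134 and 1 counts, so that replicate 1 was 114.9-fold higher (20.3 to 4570). Cyp2d9 held 40 and 0 counts and was at least 11.4-fold higher in replicate 1 against the floor of 3 counts, with an interval that starts at 8.87-fold. Of the stretches of 76 nucleotides in Cyp2d10, 21.8% also occurred in another gene, mainly Cyp2d11.

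Among Cyp2c genes, which oxidise drugs as well as arachidonic acid, Cyp2c65 stood at 136 TPM in replicate 1 and 94.0 in replicate 2. It was not called with TMM scaling (1.30-fold higher in replicate 1, 1.26 to 1.34). Epithelial scaling moves all ratios toward replicate 1, so Cyp2c65 differed more with it. Cyp2c66 stood at 110 and 43.9 TPM and was called higher in replicate 1 (2.26-fold, 2.16 to 2.37). Cyp2c65 and Cyp2c66 shared 11.2% and 10.6% of their stretches of 76 nucleotides with each other. Cyp2c68, shown above with 2 motifs, stood at 12.7 and 26.1 TPM and was called higher in replicate 2 (2.28-fold, 2.09 to 2.49), as was Cyp2c29 at 5.34 and 11.1 TPM (2.31-fold, 2.03 to 2.64). Neither was called with spike-in scaling (log2 ratios 0.93 and 0.92) or with epithelial scaling (0.10 and 0.11). Cyp2c68 shared 28.1% of its stretches with other genes, mainly Cyp2c40, which had 0 counts in both libraries. Cyp2c55, another gut Cyp2c gene, stood at 34.5 and 42.9 TPM and was not called. Cyp2c23, Cyp2c67 and Cyp2c38, with 53 and 65, 9 and 16, and 11 and 12 counts, were not called either.

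Cyp2b10, a target of the receptor Nr1i3 (CAR), stood at 107 and 152 TPM and was not called (1.59-fold, 1.55 to 1.64). Its neighbour Cyp2b13 had 0 counts in replicate 1 and 105 in replicate 2, at least 40.8-fold higher there against the floor of 3 counts, with an interval that starts at 32.6-fold. Cyp2s1, expressed in epithelia outside the liver, stood at 74.4 and 52.5 TPM and was not called. Cyp2w1 stood at 1.44 and 0.51 TPM (2.57-fold higher in replicate 1, 1.63 to 4.18).

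In the Cyp3a subfamily, Cyp3a11, a target of the receptor Nr1i2 (PXR), stood at 23.1 and 27.9 TPM and was not called (1.35-fold, 1.27 to 1.43). Cyp3a13, which lies apart from the cluster, stood at 11.6 and 31.7 TPM and was 3.05-fold higher in replicate 2 (2.86 to 3.25; not called with epithelial scaling, log2 ratio 0.51). Cyp3a25 stood at 6.58 and 11.2 TPM and was not called; 60.0% of its TPM in replicate 1 and 53.3% in replicate 2 came from Cyp3a25-203, annotated as subject to nonsense-mediated decay. The other 6 Cyp3a genes had 0 counts in both libraries.

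Cyp1a1, which oxidises polycyclic aromatic hydrocarbons and is induced through the Ah receptor, stood at 45.4 TPM in replicate 1 and 4.06 in replicate 2, from 4514 and 387 counts. Replicate 1 was 9.998-fold higher (9.01 to 11.1), which the test with the wider error did not call (adjusted p = 0.228, edgeR exact test). Cyp1a2, its neighbour on chromosome 9, had 41 and 0 counts and was at least 11.7-fold higher in replicate 1 against the floor of 3 counts, with an interval that starts at 9.11-fold. Cyp1b1, another target of the Ah receptor, stood at 1.59 and 1.28 TPM and was not called. The receptor gene Ahr stood at 4.67 and 2.97 TPM, and its targets Ahrr and Tiparp at 0.61 and 0.59 TPM and at 2.58 and 1.67 TPM; none of these was called. These 3 genes were named after their values were seen.

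At low levels, Cyp2e1 had 12 and 32 counts and Cyp2a12 had 6 and 30, and both were called higher in replicate 2. Cyp2f2 had 33 and 26 counts and was not called. All 5 hepatocyte genes tested gave counts in both libraries, with Alb at 55 and 2 counts and Ttr at 918 and 160, and 4 of them were called higher in replicate 1. The part of liver, pancreas or stomach RNA in the P450 genes higher in replicate 1, and of enterocyte RNA in those higher in replicate 2, was not tested.

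Sterol and bile acid genes, 6 in number, summed to 10.35 and 31.28 TPM. Cyp27a1, the mitochondrial sterol hydroxylase, made up most of this, at 7.73 TPM in replicate 1 and 29.4 in replicate 2 (4.36-fold higher in replicate 2, 3.93 to 4.84). Cyp7b1, an oxysterol hydroxylase, stood at 1.24 and 1.25 TPM and Cyp46a1, a cholesterol hydroxylase best known in brain, at 1.00 and 0.52 TPM; neither was called. Cyp39a1, another oxysterol hydroxylase, had 41 and 10 counts and was called higher in replicate 1. Cyp8b1, which acts in cholic acid synthesis, had 2 and 0 counts. Cyp7a1, the rate-limiting enzyme of bile acid synthesis in liver, had 0 counts in both libraries, though the upper bounds that the authors' table gives for it, 1.81 and 4.52 TPM, were wide.

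Of the 3 vitamin D genes, Cyp24a1, which inactivates the hormone, had 0 counts in both libraries. Cyp2r1, which makes the circulating form of vitamin D, stood at 9.98 and 1.52 TPM (6.29-fold higher in replicate 1, 4.58 to 8.83). Its transcript Cyp2r1-205, annotated as subject to nonsense-mediated decay, held 80.1% of its TPM in replicate 1 and 31.4% in replicate 2, and its longest coding transcript, Cyp2r1-201, was at 0 counts in both. The coding transcripts of Cyp2r1 summed to 1.98 TPM in replicate 1 and 1.05 in replicate 2, so they differed less than the gene. Cyp27b1, which makes the active hormone, had 58 and 10 counts and was called higher in replicate 1. All 58 counts of replicate 1 lay on Cyp27b1-203, annotated as subject to nonsense-mediated decay. The coding transcript Cyp27b1-201 held 0 counts in replicate 1 and 10 in replicate 2, so the call does not describe it. The vitamin D receptor gene Vdr stood at 202 and 116 TPM and was not called.

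Steroid hormone genes, 6 in number, summed to 10.08 and 5.07 TPM. Cyp21a1, the adrenal enzyme, stood at 8.26 and 3.85 TPM and was not called; 11.2% of its stretches of 76 nucleotides also occurred in the pseudogene Cyp21a2-ps. Cyp11a1, which starts steroid synthesis by cutting the side chain of cholesterol, held 86 and 39 counts and Cyp11b1 76 and 36. Neither was called with TMM scaling. Cyp21a1, Cyp11a1 and Cyp11b1 were 1.71-, 1.89- and 1.81-fold higher in replicate 1, below the 2-fold limit. Spike-in and epithelial scaling move all ratios further toward replicate 1. Cyp17a1 held 2 and 25 counts, 14.6-fold more in replicate 2 (3.64 to 127), and was called higher there. Cyp19a1, the aromatase, had 0 counts in both. Of 5 genes of steroid-producing cells, Hsd3b6 held 0 and 1 counts, Star stood at 1.59 and 0.63 TPM and Nr5a1 at 0.74 and 0.37 TPM; the list summed to 72.56 and 95.66 TPM, nearly all from Fdx1, and its part in these values was not tested.

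Among the retinoic acid genes, which break this signal down, Cyp26b1 stood at 0.22 TPM in replicate 1 and 3.12 in replicate 2, from 40 and 554 counts (16.2-fold higher in replicate 2, 11.7 to 22.9). On the log2 scale with 0.5 CPM added this was the highest ratio among the tested P450 genes; Cyp2b13, with 0 counts in replicate 1, differed more in scaled counts. Cyp26a1 had 0 and 5 counts and Cyp26c1 2 and 0. Cyp20a1, whose substrate is not known, stood at 0.87 and 0.43 TPM and was not called. The adipocyte genes given above, all 4 called higher in replicate 2, moved with Cyp26b1; their part in it was not tested.

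The 28 genes at 0 counts in both libraries were Cyp2a4, Cyp2a22, Cyp2b9, Cyp2b19, Cyp2b23, Cyp2c39, Cyp2c40, Cyp2c54, Cyp2c69, Cyp2d11, Cyp2d40, Cyp2g1, Cyp2j7, Cyp2j11, Cyp2t4, Cyp3a16, Cyp3a41a, Cyp3a41b, Cyp3a44, Cyp3a57, Cyp3a59, Cyp4a12b, Cyp4a14, Cyp4a29, Cyp4a30b, Cyp7a1, Cyp19a1 and Cyp24a1. A count of 0 allows up to 3 counts, or 0.0678 CPM in replicate 1 and 0.0671 in replicate 2, for counting error only. Sharing of sequence limits this for some: Cyp3a41a and Cyp3a41b shared 95.2% and 90.8% of their stretches of 76 nucleotides with other genes. A further 18 genes had counts in at least 1 library and a mean count below the limit set for the test: Cyp2a5, Cyp2c37, Cyp2c50, Cyp2c70, Cyp2d12, Cyp2d34, Cyp2j5, Cyp2j8, Cyp2j12, Cyp2j13, Cyp4a12a, Cyp4a31, Cyp4f37, Cyp4x1, Cyp8b1, Cyp11b2, Cyp26a1 and Cyp26c1. Of these, Cyp4a12a had the most, 15 and 0.

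Levels were uneven within the genomic clusters. With gaps of up to 500 kb, 76 of the 98 genes lay in 10 clusters and 22 lay alone. The Cyp2c cluster on chromosome 19 holds 14 genes over 1180 kb, and its first 3 genes in order, Cyp2c55, Cyp2c65 and Cyp2c66, were also its 3 highest; 4 of its genes had 0 counts in both libraries. The Cyp2d cluster on chromosome 15 holds 8 genes over 423.8 kb, with its 2 highest genes, Cyp2d22 and Cyp2d26, at its ends. In the Cyp4f cluster on chromosome 17, 8 genes over 494.7 kb, 6 genes reached a TPM of at least 1 in both libraries; Cyp4f39, Cyp4f17 and Cyp4f15 were called higher in replicate 1, and Cyp4f14 and Cyp4f13, which lie next to each other at its end, higher in replicate 2. The Cyp4 cluster on chromosome 4 ends with Cyp4b1, called higher in replicate 2, after Cyp4a10, Cyp4a31 and Cyp4a32, which were higher in counts in replicate 1. In the Cyp3a cluster on chromosome 5, 6 of 8 genes had 0 counts in both libraries, and in the Cyp2 cluster on chromosome 7, 7 of 13. These are descriptions of order, with no test.

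**Figure D4:**
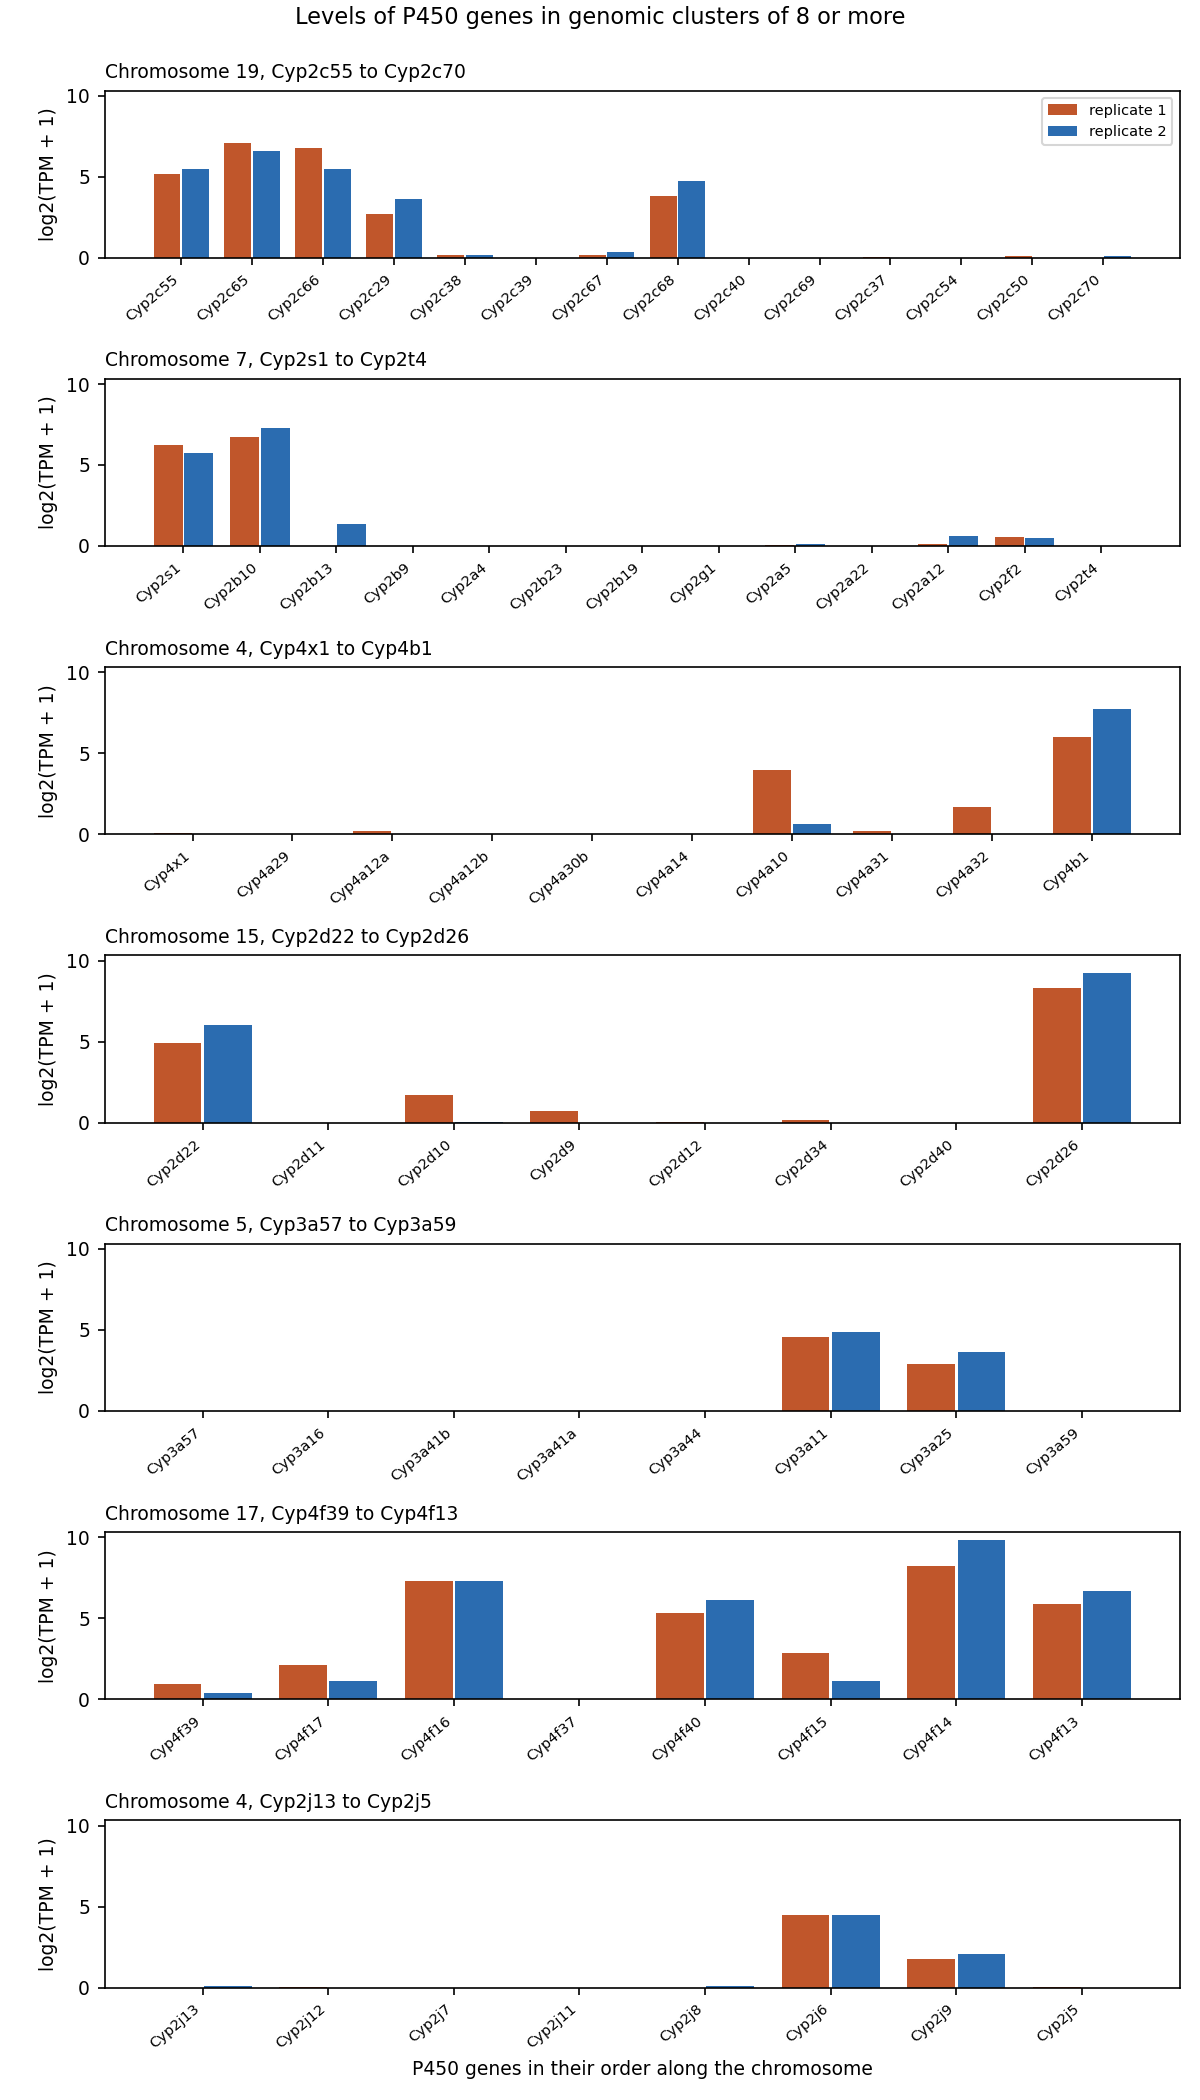
Levels as log2(TPM + 1) of the P450 genes in the 7 clusters of 8 or more genes, in their order along the chromosome, with orange bars for replicate 1 and blue bars for replicate 2. In the Cyp2c cluster the first 3 genes are the highest, and in the Cyp2d cluster the genes at both ends.

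With TMM scaling, few genes that serve the P450 enzymes were called. Over all genes tested, 14.6% were called higher in replicate 1 and 11.5% higher in replicate 2. Of 20 redox partners and heme genes found (21 were listed), 0 were called higher in replicate 1 and 1 higher in replicate 2, with a median log2 ratio of 0.38. That gene was Por, the reductase, at 167 and 283 TPM (2.12-fold higher in replicate 2). The other high genes of the list were Cyb5r3 at 701 and 831 TPM, Alad, an enzyme of heme synthesis, at 173 and 305 TPM, Pgrmc1 at 151 and 227 TPM and Cyb5a at 125 and 201 TPM, none of them called. Of 24 receptors and regulators, 0 were called higher in replicate 1 and 2 higher in replicate 2, with a median log2 ratio of 0.07: Nr1i2 (PXR) at 43.0 and 89.3 TPM (2.32-fold), named after its values were seen, and Nr1h3 at 56.8 and 140 TPM (2.82-fold). By mean TPM the 5 highest were Nr1h2 at 233 and 252 TPM, Hnf4a at 261 and 184 TPM, Ppard at 202 and 216 TPM, Vdr and Nr1h3, both given above; of these, Nr1h3 was called. Nr1i3 (CAR) stood at 39.8 and 43.9 TPM and was not called. Por had a log2 ratio of 1.08, below Cyp2d26 (1.11), which was not called with spike-in or epithelial scaling. Nr1i2 (1.21) and Nr1h3 (1.49) lay below Cyp3a13 (1.59), which was not called with epithelial scaling. Calls of Por, Nr1i2 and Nr1h3 with these scalings are not given here.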

How the data were processed

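Polyadenylated RNA of duodenum was sequenced in 2 libraries of 1 group. Per the text files deposited beside the tables, the genome was mm10 and the annotation GENCODE M4, with spike-ins added; the aligner and quantifier were not given in the sources used here. Expected counts, deposited per gene and transcript, are estimated fragments with no normalisation, per the file headers; posterior mean counts served as an alternative. TPM was scaled by the authors to length and library total, and FPKM to length and fragments, per the file headers. Isoform percent, as deposited, gives how much of a gene's TPM each transcript held. The deposited bounds on TPM, a signal per gene, entered no test.

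Symbols, gene types and positions came from GENCODE M21 through the gene identifier (42462 of 43346 rows matched), and promoters from RefSeq. Rounded expected counts were scaled by TMM (edgeR 4.0.16, R 4.3.3) over genes only, with ERCC spike-ins (1.35% and 1.36% of counts) left out. Each gene with a mean count of at least 10 got an exact binomial test in scipy 1.17.1, with Benjamini-Hochberg adjustment. edgeR's quasi-likelihood test needs more than 1 library on each side and was not possible. The code was tested on simulated data. Log2 ratios use scaled CPM + 0.5; intervals and floors cover counting error only. Alternatives were DESeq2 1.42.0 size factors, spike-in or epithelial scaling, no filter, posterior counts, an edgeR exact test with a common dispersion, other fold limits, other level units and a stricter symbol rule. Named genes were the 20 highest by mean TPM, the highest of each subfamily, every called gene at a TPM of at least 1, genes at 0 counts, and the 5 highest of each pathway list with any called at 4-fold or more. Members and lists were chosen with earlier results of these data known. The deposited junction and contig lists, in mm9 coordinates, were not used here.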

Additional observations from a re-analysis of the deposited data

How the results depend on the processing

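The number of P450 genes at a TPM of at least 1 in both libraries (30), their summed TPM and the Cyp4f share moved by less than the spread between the libraries with posterior mean TPM, with rescaled FPKM or without the pancreas, stomach and Brunner gland genes. Read in 1 library alone, the number ranged from 32 to 36, the summed TPM from 1641 to 2755 and the Cyp4f share from 34.85% to 45.51%. The calls between libraries depended on scaling and error; the cause was not tested. With epithelial scaling, 23 genes were called higher in replicate 1 and 7 higher in replicate 2, a share near the 59.1% of all genes called; 21 of the 30 calls were shared, and the log2 ratio of Cyp4f13 became −0.023; Cyp4f14, Cyp2d26, Cyp2d22, Cyp4v3, Cyp3a13, Cyp2c68 and Cyp2c29 were no longer called. With the common dispersion, 3 and 1 were called, and 10 of the 52 had an unadjusted p under 0.05. Spike-in scaling gave 19 and 12 calls (28% of all genes), without Cyp2d26, Cyp4f13, Cyp2c68 and Cyp2c29. A fold limit of 3 gave 10 and 11 (12.8% of all genes called), and a limit of 1.5 gave 19 and 21 (45.3%); with no filter on low counts, 17 and 17 of 70 were called (25% of all genes). DESeq2 size factors and posterior mean counts gave 14 and 16, with all 30 calls shared. Symbols with no copy letter left 93 genes and the same counts of calls. Leaving out a replicate leaves no comparison between libraries. No paired analysis was possible because there is 1 group. Genes with a mean count under 10 were left out by choice, and their ratios have wide intervals at this depth.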

Other observations

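Genes left out by the rule also gave counts. Cyp51, the sterol demethylase of cholesterol synthesis, stood at 12.4 TPM in replicate 1 and 4.19 in replicate 2, from 1900 and 618 counts, and was called higher in replicate 1 (2.64-fold, 2.41 to 2.89). Cyp2ab1, whose symbol has 2 subfamily letters, had 5 and 0 counts. Among the pseudogenes, Cyp21a2-ps had 34 and 11 counts and was called higher in replicate 1, Cyp2d41-ps had 9 and 13, and Cyp4f41-ps had 7 and 0.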
